A study of Homo sapiens with 4 samples.

Results

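The levels of 10 genes of the YAP-TEAD pathway were described in breast cancer cells depleted of SNRNP40, a component of the U5 particle of the spliceosome. The genes were the coactivators YAP1 and WWTR1, which encodes TAZ, the DNA-binding partners TEAD1 and TEAD4, the target genes CTGF, CYR61, ANKRD1 and AMOTL2, and the kinases LATS1 and LATS2. They were chosen by name, with earlier results of these data known. All 10 of 10 were found among 23217 gene symbols, with 18 of 44578 transcripts. RNA was sequenced from 4 libraries of LV-M100, a clonal subline of the human MDA-MB-231 breast cancer line, so all values come from 1 clone. The control condition, siControl, and the other condition, siSNRNP40, had 2 libraries each. The paper states that 2 siRNAs were used per condition. It names NC1 and the BLOCK-iT Fluorescent Oligo as controls, and siSNRNP40 #1 and siSNRNP40 #2 against SNRNP40. The sample titles number the libraries without naming the siRNA, so 1 siRNA per library is inferred. All 4 libraries came from lipid transfections extracted 48 h later, and ribosomal RNA was removed before sequencing.

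YAP and TAZ are transcriptional coactivators without a DNA-binding domain of their own, and they act at genes largely through the TEAD factors. In the Hippo pathway, the kinases MST1 and MST2 activate LATS1 and LATS2, which phosphorylate YAP and TAZ. The phosphorylated proteins are held in the cytoplasm by 14-3-3 proteins or degraded. CTGF and CYR61 encode secreted matrix-associated proteins, ANKRD1 a nuclear ankyrin repeat protein and AMOTL2 a junctional protein of the angiomotin family that binds YAP. AMOTL2 and LATS2 are themselves targets of YAP and TAZ and also restrain them, so the pathway contains negative feedback. MDA-MB-231 is known for high YAP and TAZ activity and carries a mutation in NF2, an upstream activator of the kinases. Much of YAP and TAZ control lies in phosphorylation and location of the proteins, which transcript levels do not measure.

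TEAD factors bind a core element written GGAATG on 1 strand and CATTCC on the other, and promoters of the target genes are shown because they carry it. RefSeq promoter windows of GRCh38.p14, from 250 bases before to 50 bases after a transcription start, were available for 7 of the 10 genes and were placed in GRCh37, the build of the expression table, by exact match. The element was found in a window of 5 of these 7 genes (CTGF, ANKRD1, AMOTL2, YAP1 and LATS2) and in neither window of WWTR1 or of LATS1. Over all 35116 promoter windows it was found in 14.0%, and 16.7% of 27305 genes had it in at least 1 window. The 3 target promoters follow, 5′ to 3′, with the element in capitals. They lie at chr6:132272463-132272762 (CTGF, minus strand), chr10:92680795-92681094 (ANKRD1, minus strand) and chr3:134093240-134093539 (AMOTL2, minus strand). Another AMOTL2 window, at chr3:134094210-134094509 (minus strand), did not hold the element and is not shown.
CTGF: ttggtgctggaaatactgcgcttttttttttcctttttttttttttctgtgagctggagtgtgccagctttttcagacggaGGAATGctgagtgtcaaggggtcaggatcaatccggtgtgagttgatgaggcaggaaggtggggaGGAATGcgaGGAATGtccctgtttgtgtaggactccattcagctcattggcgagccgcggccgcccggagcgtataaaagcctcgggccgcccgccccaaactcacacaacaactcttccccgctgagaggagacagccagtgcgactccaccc
ANKRD1: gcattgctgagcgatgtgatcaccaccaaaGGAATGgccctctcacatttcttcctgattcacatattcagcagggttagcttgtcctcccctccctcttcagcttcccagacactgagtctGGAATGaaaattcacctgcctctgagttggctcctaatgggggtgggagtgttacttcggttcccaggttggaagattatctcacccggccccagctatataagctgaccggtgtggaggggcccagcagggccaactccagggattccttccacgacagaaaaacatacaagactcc
AMOTL2: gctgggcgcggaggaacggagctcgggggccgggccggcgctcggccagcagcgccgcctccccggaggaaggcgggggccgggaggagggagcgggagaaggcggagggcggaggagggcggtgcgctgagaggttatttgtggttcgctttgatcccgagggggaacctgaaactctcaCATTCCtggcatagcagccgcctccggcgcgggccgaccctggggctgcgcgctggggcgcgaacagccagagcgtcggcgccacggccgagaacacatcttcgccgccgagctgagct
The CTGF window held the element 3 times, beginning 169, 104 and 95 bases before the start, and 45 of all windows (0.128%) held it 3 or more times. ANKRD1 had it at 220 and 128 bases before the start, and AMOTL2 had it in the other orientation at 69 bases before the start. These distances are counted from the RefSeq start of each window. The spans of ANKRD1 and AMOTL2 in the expression data reach to 92681032 and 134093406, beyond those starts on the minus strand. The ANKRD1 element at 128 bases and the AMOTL2 element therefore lie within those spans. YAP1 carried it 162 bases before the start and LATS2 at base 10 after the start, within windows at chr11:101980928-101981227 (plus strand) and chr13:21635676-21635975 (minus strand). Their 30 bases around the element are given in the same way.
YAP1: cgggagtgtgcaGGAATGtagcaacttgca
LATS2: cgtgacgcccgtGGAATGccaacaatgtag
A match of 6 letters is a description of the sequence and does not show that a TEAD factor binds there.

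The deposited table gave 1 FPKM value per transcript and condition (fragments corrected for the length of the transcript and the total mapped), in which both libraries of a condition were pooled. No value used here therefore has a replicate error, no test between the conditions could be made from these values, and differences between the 2 siRNAs of a condition cannot be seen. FPKM was summed over the transcripts of a gene, and log2 ratios are siSNRNP40 over siControl, so that a negative value is lower after depletion. SNRNP40 itself had 40.4 FPKM with control siRNA and 6.12 with SNRNP40 siRNA, a decrease of 84.9%. Among low values of FPKM times length of 605 intronless genes, the 2 commonest per condition were read as 1 fragment of each of 2 averaged libraries. On that reading the libraries held about 16800000 and 13900000 fragments in siControl and about 7400000 and 6400000 in siSNRNP40. In siControl, 67.4% of the 141 low values examined were whole fragments within 0.5%, and in siSNRNP40 65.8% of 79 were. These shares include the values that set the steps, and no chance rate was computed, so they are no independent check. If the reading holds, the depletion libraries were the shallower ones, and the part of depth in the ratios was not tested. Of the markers checked, VIM (750 and 733 FPKM) and CD44 (116 and 141) of mesenchymal MDA-MB-231 cells were abundant in both conditions, the luminal markers ESR1, PGR and CDH1 were under 0.1 FPKM, and PTPRC and ALB, markers of leukocytes and hepatocytes, were listed at 0. Of the other markers, luminal EPCAM (10.6 and 10.0 FPKM) and GATA3 (1.32 and 1.18 FPKM) and endothelial PECAM1 (0.922 and 1.2 FPKM) passed the filter, and the T cell marker CD3E was at 0.020 and 0.096 FPKM. Their part in the results was not tested.

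The 10 genes differed in level far more than either condition changed them. ANKRD1 was the most abundant, at 239 FPKM with control siRNA, above 97.8% of the 12334 genes that averaged 1 FPKM or more over both conditions and had a ratio. YAP1 followed at 49.1 FPKM, CYR61 at 27.0, WWTR1 at 23.3, TEAD1 at 18.5, AMOTL2 at 15.6 and CTGF at 15.4, all above the median gene at 10.7 FPKM. The kinases LATS1 (4.20) and LATS2 (4.08) and the factor TEAD4 (1.40) lay under the median gene. With SNRNP40 siRNA the order was the same except that AMOTL2 moved from the sixth to the fourth place. Neighbours in this order cannot be told apart beyond replicate spread, since that spread is unknown.

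**Figure D1:**
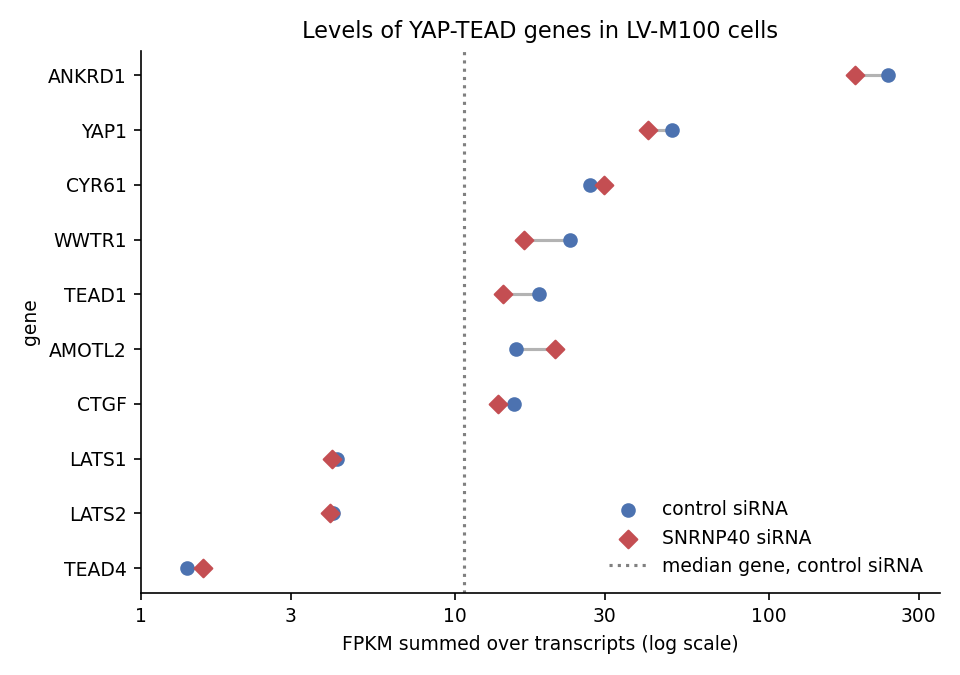
Level of each gene (FPKM summed over its transcripts, log axis) with control siRNA (blue circles) and SNRNP40 siRNA (red diamonds), 1 pooled value per condition and no error bars. ANKRD1 is highest at 239 and 188 FPKM and TEAD4 lowest at 1.40 and 1.58 FPKM, and the dotted line marks the median gene at 10.7 FPKM.

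None of the 10 genes changed by more than 2-fold on SNRNP40 depletion. With 10 of 10 past the filter of a mean FPKM of 1, 0 had an absolute log2 ratio above 1, where 1.47% of all 12334 genes did, and 0 had one above 0.5, where 10.3% did. In all, 7 were lower and 3 higher, and scaling both conditions to the same upper quartile turned LATS2 and made the split 6 and 4. Of all 12334 genes, 49.5% were lower before that scaling, and the difference from 7 of 10 was not tested. Their median log2 ratio was -0.11, beside 0.0034 for all genes, which had quartiles of -0.17 and 0.17. That median was -0.26 over the 7 genes that averaged 5 FPKM or more, and -0.17 with only the most expressed transcript of each gene, when TEAD4 no longer passed the filter. Against the quartiles of all genes, 5 of the genes (YAP1, WWTR1, TEAD1, CTGF and ANKRD1) lay under the lower one, AMOTL2 and TEAD4 over the upper one, and CYR61, LATS1 and LATS2 between. CTGF (-0.1686, quartile -0.16665) and TEAD4 (0.1762, quartile 0.1745) were only just past, so their placement is close to a tie. In bulk RNA, fewer cells expressing a gene and less RNA per cell cannot be told apart.

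For the 7 genes with 1 listed transcript, an interval of 95% was set on the log2 ratio from the estimated number of fragments, assuming equal levels in both libraries of a condition. These intervals cover counting error only and not the spread between libraries or between siRNAs. The interval left out 0 for 5 of the 7 genes, TEAD1, ANKRD1 and, narrowly, CTGF below it and CYR61 and AMOTL2 above it. The share of all genes whose interval would leave out 0 was not computed, so the count does not set these genes apart. The median absolute log2 ratio of all genes was 0.17.

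**Figure D2:**
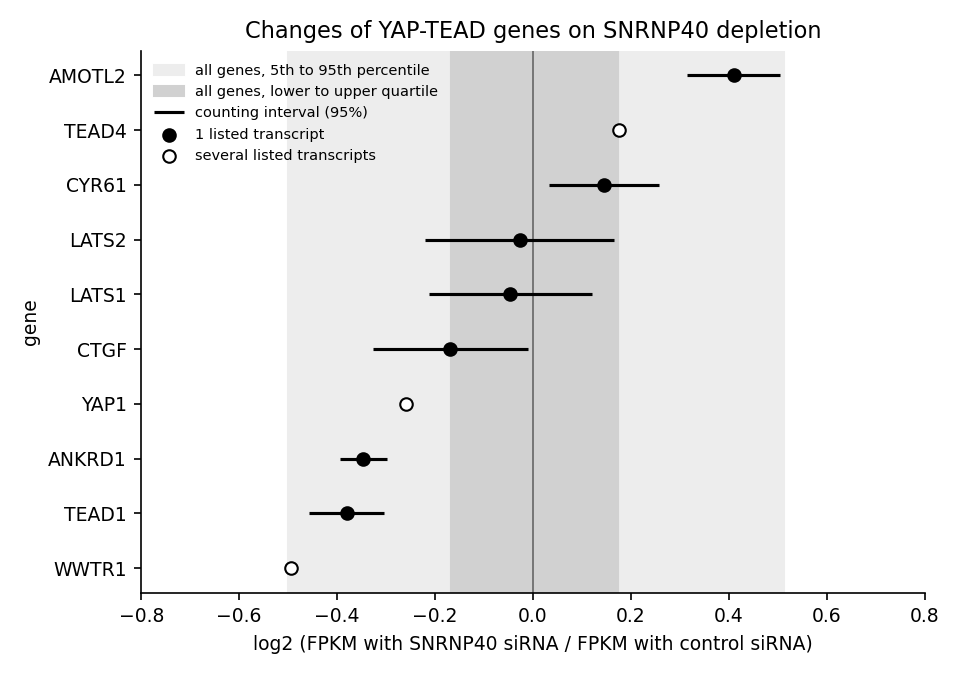
Log2 ratio of FPKM, SNRNP40 siRNA over control siRNA, for each gene, with lines for the counting interval (95%) of the 7 genes with 1 listed transcript (filled points) and open points for YAP1, WWTR1 and TEAD4. The shaded bands are the quartiles (-0.17 to 0.17) and the 5th to 95th percentiles (-0.50 to 0.51) of 12334 genes, and all 10 genes lie inside the wider band.

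Both coactivators were lower after SNRNP40 depletion. WWTR1 (chr3:149235022-149421060, minus strand, ENSG00000018408), a gene of 186 kb, went from 23.3 to 16.5 FPKM, a log2 ratio of -0.49. This was the largest absolute ratio of the 10 with transcripts summed (with only the most expressed transcript, WWTR1 at -0.40 came just behind AMOTL2 at 0.41), and 5.16% of all genes had a lower ratio. YAP1 (chr11:101981192-102104154, plus strand, ENSG00000137693), which spans 123 kb, went from 49.1 to 41.0 FPKM, a log2 ratio of -0.26, with 15.7% of genes lower. Together the coactivators were at 72.4 and 57.6 FPKM, a change of -20.5%, and the share of YAP1 in that sum went from 67.8% to 71.3%. WWTR1 overlaps WWTR1-AS1, an antisense gene at 0.945 FPKM with control siRNA and 1.56 with SNRNP40 siRNA, and it is not stated whether counting used the strand. The 3 genes nearest to WWTR1 in their pair of log2 levels were ATP10D (23.4 and 16.5 FPKM), SACM1L (23.3 and 16.4 FPKM) and SLC37A2 (23.1 and 16.3 FPKM), at distances of 0.0049 to 0.026 on the log2 scale over 2 conditions.

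The sums for YAP1 and WWTR1 joined transcripts that did not move alike. YAP1 had 5 listed transcripts. The most abundant, transcript 5, went from 18.2 to 14.8 FPKM (log2 ratio -0.30). Transcripts 3 and 4 were lower by more, from 9.45 to 5.17 FPKM (-0.87) and from 8.22 to 5.44 FPKM (-0.60). Transcript 2 went the other way, from 4.22 to 6.42 FPKM (0.60), and transcript 1 was at 8.99 and 9.18 FPKM. Of 13 transcripts of the 10 genes past the filter, 0 had an absolute log2 ratio above 1, where 10.5% of 16691 transcripts did. An absolute ratio above 0.5 was reached by 3, all of YAP1, where 25.6% of all transcripts reached it. In total 11.1 percentage points of YAP1 FPKM moved between its transcripts, near the median of 13.2 points of the 338 genes with as many transcripts. WWTR1 kept nearly all of its level in 1 transcript, at 21.9 and 16.5 FPKM (-0.40), while its second was at 1.43 FPKM with control siRNA and listed at 0 with SNRNP40 siRNA. This moved 6.14 points of its share, beside a median of 7.64 over 978 genes with 3 transcripts. Such values depend on how fragments were assigned among overlapping transcripts as well as on expression, and the table does not tie them to named isoforms.

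**Figure D3:**
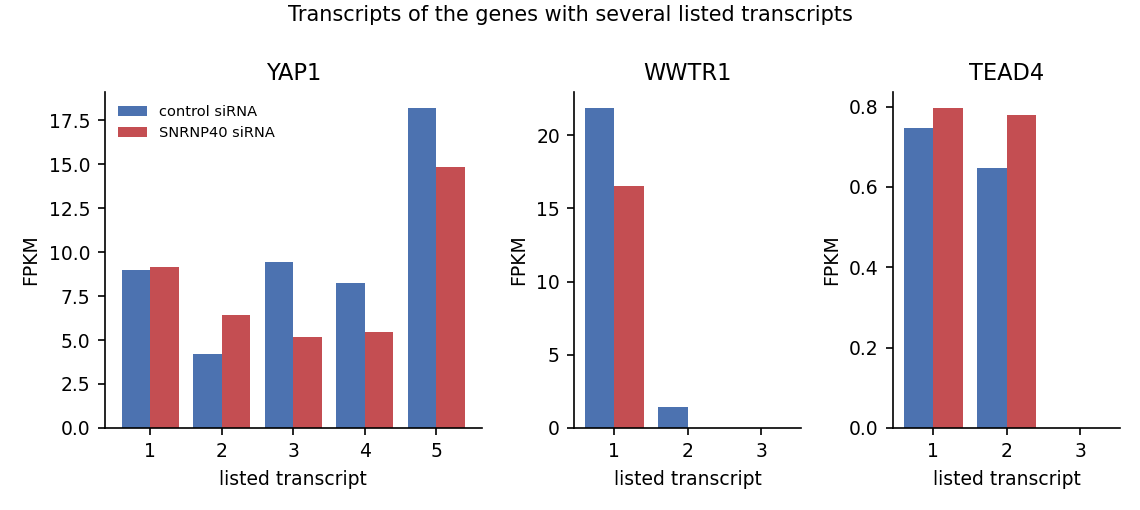
FPKM of each listed transcript of YAP1, WWTR1 and TEAD4 with control siRNA (blue) and SNRNP40 siRNA (red), 1 pooled value per bar and a separate axis for each gene. YAP1 transcripts 3, 4 and 5 are lower and transcript 2 is higher with SNRNP40 siRNA, and the second WWTR1 transcript is listed at 0 there.

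Of the TEAD factors, TEAD1 and TEAD2 were lower and TEAD3 hardly differed. TEAD4 was higher, but at a level near the filter and without a counting interval. TEAD1 (chr11:12695969-12966284, plus strand, ENSG00000187079), the most abundant TEAD with control siRNA, went from 18.5 to 14.2 FPKM. Its log2 ratio was -0.38 with a counting interval from -0.46 to -0.30, resting on about 5364 and 1853 fragments, and 8.61% of genes were lower. TEAD4 (chr12:3068478-3149842, plus strand, ENSG00000197905) went from 1.40 to 1.58 FPKM, a log2 ratio of 0.18, at a level under which few of the measured genes lay (5.76%). Its level was shared by a transcript at 0.747 and 0.797 FPKM and another at 0.648 and 0.780 FPKM, with the third near 0. TEAD2 was at 6.68 and 4.70 FPKM (-0.51) and TEAD3 at 9.86 and 10.1 FPKM (0.032). Over the 4 TEADs the sum was 36.4 and 30.6 FPKM, a change of -16.1%, and TEAD1 made up 50.8% and 46.5% of it.

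The list of coactivators, TEADs and VGLL cofactors held 10 genes, of which 7 passed the filter, with a median log2 ratio of -0.26. Of these 7 genes 5 were lower and 2 higher (49.5% of all genes were lower). In the list, 0 genes were higher by more than 0.5, where 5.24% of all genes were. There, 1 gene (TEAD2) was lower by more than 0.5, where 5.06% of all genes were. TEAD2 was no longer past 0.5 with a pseudocount of 1 or with upper-quartile scaling, and its most expressed transcript alone went the other way, from 2.58 to 3.47 FPKM (0.42). VGLL4, which competes with YAP for TEAD, was at 9.66 and 8.84 FPKM, and VGLL1 and VGLL2 were listed at 0.

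The 4 target genes split evenly in direction. ANKRD1 (chr10:92671857-92681032, minus strand, ENSG00000148677) went from 239 to 188 FPKM, a log2 ratio of -0.35 with a counting interval from -0.39 to -0.30, and 9.99% of genes were lower. With about 13190 and 4664 fragments it was the most deeply counted of the 7 genes with 1 transcript. CTGF (chr6:132269317-132272518, minus strand, ENSG00000118523), now named CCN2, went from 15.4 to 13.7 FPKM. Its log2 ratio was -0.17 with a counting interval from -0.33 to -0.0097, from about 1108 and 443 fragments, so the interval came close to 0. Upper-quartile scaling moved the ratio to -0.14, a shift larger than the distance of the interval from 0. Whether the CTGF interval leaves out 0 therefore depends on the scaling.

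The other targets were higher after depletion. CYR61 (chr1:86046444-86049648, plus strand, ENSG00000142871), now CCN1, went from 27.0 to 29.8 FPKM, a log2 ratio of 0.14 with a counting interval from 0.032 to 0.26. AMOTL2 (chr3:134074190-134093406, minus strand, ENSG00000114019) went from 15.6 to 20.8 FPKM, a log2 ratio of 0.41 with an interval from 0.31 to 0.51, and 92.2% of genes had a lower ratio. CYR61 and CTGF, members of the same CCN family, moved apart, and their ratio of levels went from 1.75 to 2.18. AMOTL2 also moved apart from its relative AMOTL1, which was at 20.0 and 16.9 FPKM, and the ratio of AMOTL2 to AMOTL1 went from 0.780 to 1.23. The sum over the 4 targets, most of it ANKRD1, was 297 and 253 FPKM, a change of -15.1%. The 3 genes nearest to ANKRD1 in their pair of log2 levels were the small RNA genes SNORD78 and SCARNA18 and the chromatin protein gene HMGA1, at distances of 0.089 to 0.094.

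Targets named from earlier work on YAP and TAZ were spread over both directions as well. Of 33 such genes, including CTGF, CYR61, ANKRD1, AMOTL2 and LATS2, 30 passed the filter, 15 lower and 15 higher, with a median log2 ratio of 0.054. Upper-quartile scaling changed that split to 12 lower and 18 higher. An absolute ratio above 0.5 was found for 4 of the 30 (13.3%), beside 10.3% of all genes, and 0 were above 1. FJX1, which encodes a homologue of a fly planar polarity protein, went from 8.34 to 16.3 FPKM (0.96). GADD45A, a stress-response gene, went from 20.9 to 32.8 FPKM (0.65), and the kinase gene NUAK2 from 3.34 to 5.03 FPKM (0.59). NT5E, which encodes the surface enzyme CD73 and was the most abundant of the list with control siRNA, went from 277 to 182 FPKM (-0.60). NUAK2 was not past 0.5 with a pseudocount of 1 (0.47), nor NT5E with only its most expressed transcript (-0.30).

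Direction was then set beside the promoter element. Of the 33 target genes, 25 had a promoter window and 13 of these (52%) held GGAATG or CATTCC, beside 16.7% of all genes. Among the 12 genes with the element that passed the filter, 9 were lower and 3 higher, with a median log2 ratio of -0.14, and upper-quartile scaling, a check added after seeing the data, made that 7 lower and 5 higher. The lower ones were TGFB2 (-0.46), PTPN14 (-0.43), FOXF2 (-0.39), SDPR (-0.15), AXL (-0.12), LATS2 (-0.027) and THBS1 (-0.0083) besides ANKRD1 and CTGF. The higher ones were NUAK2, AMOTL2 and AJUBA. Among the 10 genes with a window but no element, 4 were lower and 6 higher, with a median of 0.14, or 3 and 7 with that scaling. FJX1 (0.96) and NT5E (-0.60), with the largest rise and fall of the targets past the filter, were among these genes without it. Over all genes matched by symbol, 50.4% of the 1285 with the element were lower (median -0.00049) and 50.8% of the 7155 without it (median -0.0046). These are descriptions of few genes, with no test of the difference.

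**Figure D4:**
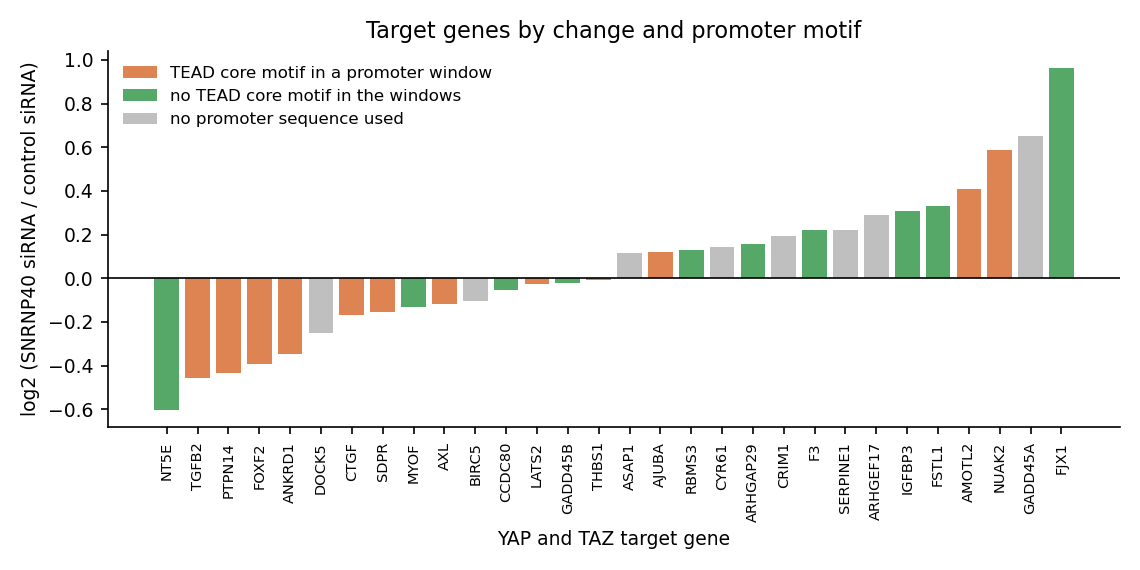
Log2 ratio of FPKM, SNRNP40 siRNA over control siRNA, for the 30 YAP and TAZ target genes past the filter, in order, with bars coloured by whether a promoter window holds GGAATG or CATTCC (orange), does not (green) or was not used (grey). Of the orange bars 9 lie below 0 and 3 above, and of the green bars 4 lie below and 6 above; with upper-quartile scaling these are 7 and 5, and 3 and 7, and about as many of all genes are lower with the element (50.4%) as without (50.8%).

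The LATS kinases hardly differed between the conditions. LATS1 (chr6:149982051-150039392, minus strand, ENSG00000131023) was at 4.20 and 4.07 FPKM, a log2 ratio of -0.047 with a counting interval from -0.21 to 0.12. LATS2 (chr13:21547176-21635722, minus strand, ENSG00000150457) was at 4.08 and 4.0 FPKM, a log2 ratio of -0.027 with an interval from -0.22 to 0.17. With about 951 and 414 fragments for LATS1 and 696 and 307 for LATS2, neither interval left out 0. The ratio of the summed coactivators to the summed LATS kinases went from 8.75 to 7.14.

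The rest of the kinase cassette comprised 5 genes, of which 4 were lower and 1 higher (49.5% of all genes were lower). Of these 5 genes 0 passed 0.5, where 10.3% of all genes did, so few genes stand behind either count. MOB1A, a coactivator of the LATS kinases and the most abundant of the list, went from 113 to 89.4 FPKM (-0.33). STK4, which encodes MST1, was at 29.3 and 27.5 FPKM (-0.093), and STK3, which encodes MST2, at 14.5 and 15.1 FPKM (0.059).

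Upstream regulators and the genes of YAP and TAZ retention and turnover complete the pathway. Of 26 upstream genes 24 passed the filter, 11 lower and 13 higher, with a median of 0.062. WWC1, which encodes the scaffold KIBRA, was the 1 gene past 0.5 (4.17%, beside 10.3% of all genes), at 5.07 and 8.79 FPKM (0.79), and with only the most expressed transcript of each gene 4 were past it. MAP4K4 (68.9 and 74.8 FPKM) and FRMD6 (63.6 and 72.7 FPKM) were the most abundant upstream genes, and the polarity scaffold gene DLG5 had the lowest ratio (15.1 and 11.1 FPKM, -0.45). NF2 was at 3.56 and 4.26 FPKM (0.26). Among the 13 retention and turnover genes, 9 were lower and 4 higher (49.5% of all genes were lower), with a median of -0.16. The 14-3-3 gene YWHAZ, the most abundant, went from 524 to 399 FPKM (-0.39), and YWHAQ was at 189 and 172 FPKM (-0.13). PPP1CA, a catalytic subunit of the phosphatase PP1 that acts on YAP and TAZ, was the 1 gene of the list past 0.5 (7.69%, beside 10.3% of all genes), at 88.0 and 60.0 FPKM (-0.55). With only the most expressed transcript of each gene 4 of the list were past it. Neither for this list nor for the upstream genes was the share of all genes computed in that setting, so 10.3% is no measure for it. Of all transcripts past the filter, 25.6% had an absolute ratio above 0.5. BTRC, a substrate receptor of the ubiquitin ligase for phosphorylated YAP and TAZ, had the highest ratio, at 6.88 and 8.28 FPKM (0.27).

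**Figure D5:**
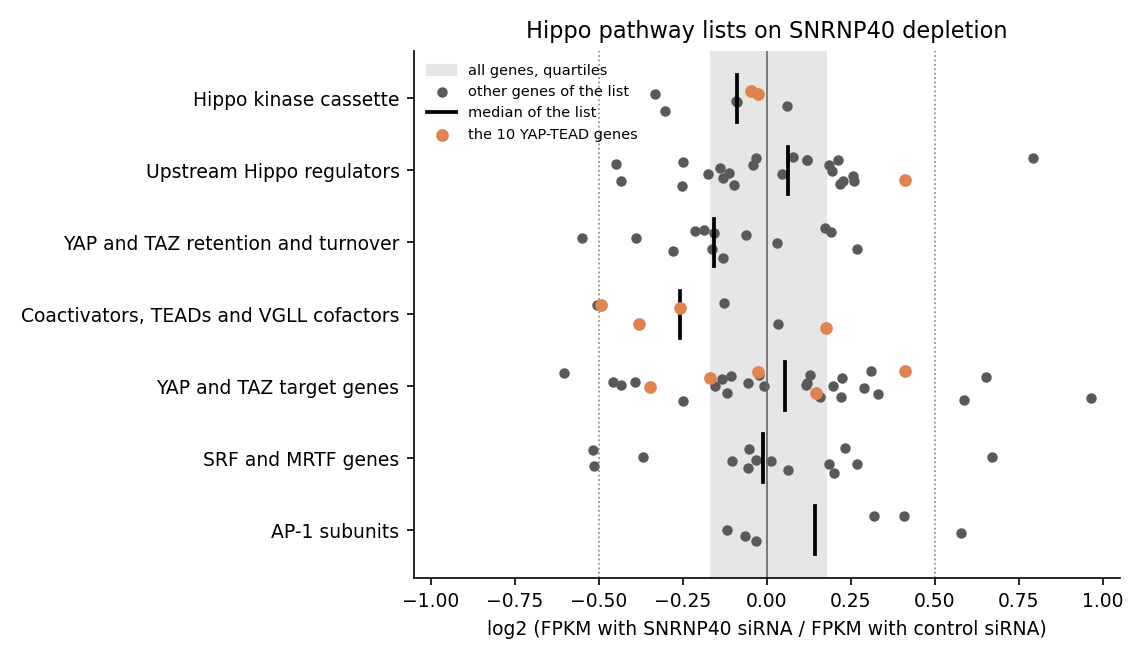
Log2 ratio of FPKM, SNRNP40 siRNA over control siRNA, for genes past the filter in 7 pathway lists (vertical spread within a list is for display only), with the 10 YAP-TEAD genes in orange, black bars for list medians, grey for the quartiles of all genes and dotted lines at 0.5 in each direction. List medians lie between -0.26 for coactivators, TEADs and VGLL cofactors and 0.14 for AP-1 subunits.

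The 10 genes also differ in size, and ratios varied with size across all genes. WWTR1, TEAD1 and YAP1 span 186, 270 and 123 kb with 7, 13 and 9 annotated exons, while CTGF and CYR61 span 3.20 and 3.21 kb with 5 exons each. Spearman's rho between span and log2 ratio was -0.47 over the 10 genes and -0.12 over all 12334, given as a description because genes share libraries. The median log2 ratio was 0.056 for the 2385 genes under 10 kb and -0.032 for the 1910 genes of 100 to 300 kb, whose quartiles were -0.19 and 0.13. The part of gene size in the ratios of the 10 genes was not tested.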

How the data were processed

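RNA from 4 libraries of LV-M100 cells (2 per condition) was analysed from the authors' transcript table. For this table the authors used cutadapt 1.2.1 (trimming), TopHat2 2.0.8 (mapping to hg19), Cufflinks with cuffmerge (expression values, consolidated across samples) and Cuffdiff 2.0.2 (the comparison), whose output the table is. Deposited values are FPKM, which the authors corrected for length and for mapped fragments, with the libraries of a condition pooled. Columns with the authors' comparison (fold change, test statistic, p, q) were not used.

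FPKM was summed per symbol, without a pseudocount in the log2 ratio, among symbols averaging 1 FPKM or more. The pooled FPKM values allow no test over libraries, so sizes (log2 0.5 and 1) stand beside the share of all genes past them. A log2 value counted as moved by 0.1 or more, a count by more than 1.5 times. Fragments per library were inferred from steps in low values of single-exon genes of 500 to 4000 bases. Counting intervals (95%) used lengths from GENCODE release 44. These intervals cover counting error only.

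The genes and lists were chosen with earlier results of these data known. Besides the 10 genes, genes were named from each list when past log2 0.5, among the 2 highest with control siRNA, or with the largest rise or fall. SNRNP40 and the 3 genes nearest to WWTR1 and to ANKRD1 were also named. Other names (such as AMOTL1, TEAD3, NF2 and the motif-bearing targets) were added with values known. Coordinates are hg19 (GRCh37), 1-based. Promoters came from RefSeq GRCh38.p14. Alternatives changed summing, pseudocount, scaling and filter. The summing and the reading of fragment steps were run on simulated data, with levels set without noise and fragments counted whole. Those runs check the code only and do not bear on the error of the deposited values. Python 3.11.15, numpy 2.4.6, pandas 2.3.3 and scipy 1.17.1 were used.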

Additional observations from a re-analysis of the deposited data

How the results depend on the processing

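The log2 ratios of the 10 genes, their counts and median, the count of them with a transcript past 1 and the list counts past 0.5 were recomputed with only the most expressed transcript of a symbol, a pseudocount of 1 FPKM, upper-quartile scaling, centring on the median gene, no filter and a mean FPKM of at least 5, where the setting applied. Other values (list medians, sums, level ratios, nearest genes, counting intervals) were not, except that the split of target genes by promoter element was recomputed with upper-quartile scaling, chosen after seeing the data. Of 105 such values 91 stayed within the limits and 14 moved. The 40 log2 ratios of the 10 genes all stayed within 0.1, and the counts of the 10 genes past 0.5 and past 1 stayed at 0. The single change of sign was LATS2, at 0.0031 with upper-quartile scaling, which shifted all ratios by the upper-quartile difference of -0.031. The median of the 10 genes was -0.26 at a mean FPKM of at least 5, which left out the LATS kinases and TEAD4. Counts past 0.5 moved for 6 lists, and the share of all genes past it was not recomputed in any setting. With the most expressed transcript they were 4 for upstream regulators and 4 for retention and turnover (1 each in the report), and 0 for coactivators, TEADs and VGLL cofactors and 0 for AP-1 subunits. A pseudocount of 1 gave 0 for coactivators, TEADs and VGLL cofactors, 1 for SRF and MRTF genes and 0 for AP-1 subunits. Upper-quartile scaling gave 0 for coactivators, TEADs and VGLL cofactors and 1 for SRF and MRTF genes. No filter gave 2 for upstream regulators, 7 for target genes and 2 for AP-1 subunits, and a mean FPKM of at least 5 gave 0 for AP-1 subunits. No paired analysis was possible because the table holds 1 pooled value per condition, and for the same reason no library could be left out. Fragments per library rest on steps found in low values, which library is which is not known, and YAP1, WWTR1 and TEAD4 have no counting interval.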

Other observations

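Genes of pathways that often act beside YAP and TAZ were also measured. Serum response factor (SRF) and its MRTF coactivators drive cytoskeletal genes, and 14 of 16 such genes passed the filter, 7 lower and 7 higher, with a median log2 ratio of -0.011. CNN2, which encodes the actin-binding protein calponin 2, went from 41.1 to 65.4 FPKM (0.67). TAGLN, which encodes transgelin, was at 3.11 and 2.17 FPKM (-0.52) and ZYX, which encodes zyxin of focal adhesions, at 6.27 and 4.39 FPKM (-0.51). The most abundant of the list, TPM4 and FLNA, were at 308 and 286 FPKM and at 207 and 199 FPKM. Those 3 genes past 0.5 are 21.4% of the 14, beside 10.3% of all genes, and the count was 1 with a pseudocount or with upper-quartile scaling.

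AP-1 factors occupy many enhancers together with TEADs. Of 8 subunits 6 passed the filter, 3 lower and 3 higher, with a median of 0.14. JUN was the most abundant, at 60.5 and 55.6 FPKM (-0.12), FOSL1 was at 22.8 and 28.5 FPKM (0.32), and ATF3, a stress-induced member, at 1.24 and 1.85 FPKM (0.58), was the 1 subunit past 0.5 (16.7%, beside 10.3% of all genes). ATF3 was not past it with a pseudocount of 1, and it did not pass the filter with only its most expressed transcript or at a mean FPKM of at least 5. Within the CCN family of CTGF and CYR61, NOV was at 1.44 and 1.85 FPKM (0.36), and WISP1, WISP2 and WISP3 were under the filter. The 6 mesenchymal markers split into 3 lower and 3 higher, with a median log2 ratio of 0.13. CAV1, which encodes caveolin 1, went from 285 to 198 FPKM (-0.53). It was the 1 marker of the 6 past 0.5 (16.7%, beside 10.3% of all genes). CD44 (0.29), EGFR (18.3 and 22.7 FPKM, 0.31) and FOSL1 were the 3 higher ones.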
